A study of Homo sapiens with 12 samples.

Results

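Protocadherin transcripts were measured in 2 human embryonal carcinoma cell lines after knock-down of SOX2, a transcription factor of the pluripotency network. The members described here are the probe sets whose platform annotation gives a symbol starting with PCDH and no symbol of another kind. There were 46 of them among the 32321 probe sets of the array, comprising 14 of the alpha cluster, 18 of the beta cluster, 1 of the gamma cluster and 13 of non-clustered genes. A total of 43 named 1 gene. The other 3 named several protocadherins each and stand for one alpha probe set shared by 15 alpha genes, called PCDHA common here, and for 2 probe sets of the X- and Y-linked pair PCDH11X and PCDH11Y. Gamma genes were thus represented by PCDHGB4 alone. A mean signal below the median of all probe sets was found for 34 of the 46.

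The 4 groups held 3 arrays each, labelled as biological replicates, and were NTera-2 siSOX2, NTera-2 control, 2102Ep siSOX2 and 2102Ep control. NTera-2 is a pluripotent line and was used at passage 40 to 50, while 2102Ep is a nullipotent line used at passage 35 to 50. Cells were seeded 24 h ahead, transfected for 6 h with an siRNA against SOX2 or a non-targeting siRNA, and cultured for another 72 h. Lipofectamine RNAiMAX carried the siRNA into NTera-2 cells and Lipofectamine 2000 into 2102Ep cells, and the siRNA amount differed too, so that line, reagent and amount cannot be told apart. Each group is a transfected culture of 1 line with 1 siRNA, and no second siRNA against SOX2 and no rescue was among the groups.

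Protocadherins are the largest family of cadherins, calcium-dependent adhesion proteins of the cell surface. The clustered genes lie side by side on chromosome 5 in an alpha, a beta and a gamma array. An alpha or gamma transcript joins one of many variable first exons to constant exons shared by its array, whereas each beta gene is a single exon. Every variable exon has its own promoter, most of these promoters carry a short conserved element, and the insulator protein CTCF together with cohesin takes part in choosing which of them is active, so that single neurons display different combinations and recognise themselves. Non-clustered protocadherins, such as PCDH8, PCDH10 and PCDH18, have promoters of their own and act in embryonic cell movement, axon growth and synapse formation.

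The short element is shown for 11 promoters, because neighbouring genes that carry it differed between the lines and others did not. The sequences are those of RefSeq on GRCh38.p14, plus strand, with the 7 bases that were searched for in capitals. The letters TGTCGCT and TGGCGCT were picked after looking at these promoters. Alpha promoters with a lower signal in NTera-2 than in 2102Ep control cells were these.
PCDHA1 (chr5:140786082-140786122): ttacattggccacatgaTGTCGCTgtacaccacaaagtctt
PCDHA2 (chr5:140794777-140794817): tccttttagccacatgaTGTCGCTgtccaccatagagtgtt
PCDHA6 (chr5:140827893-140827933): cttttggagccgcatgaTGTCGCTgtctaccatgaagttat

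Alpha promoters of genes whose difference between the lines did not pass the test were these.
PCDHA10 (chr5:140855837-140855877): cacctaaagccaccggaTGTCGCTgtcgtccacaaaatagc
PCDHA11 (chr5:140868879-140868919): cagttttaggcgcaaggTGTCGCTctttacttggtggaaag

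Beta promoters with a lower signal in NTera-2 control cells were these.
PCDHB3 (chr5:141100389-141100429): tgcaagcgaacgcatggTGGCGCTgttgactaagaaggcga
PCDHB12 (chr5:141208639-141208679): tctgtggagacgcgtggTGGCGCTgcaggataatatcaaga
PCDHB13 (chr5:141213861-141213901): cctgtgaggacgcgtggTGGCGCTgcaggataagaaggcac
PCDHB14 (chr5:141223259-141223299): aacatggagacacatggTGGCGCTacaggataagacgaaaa

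Beta promoters of genes whose difference did not pass the test were these.
PCDHB2 (chr5:141094540-141094580): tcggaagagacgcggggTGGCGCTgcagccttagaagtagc
PCDHB5 (chr5:141135175-141135215): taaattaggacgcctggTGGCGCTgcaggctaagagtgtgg

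Of the 42 genes named by a probe set of their own, 34 had a RefSeq promoter window, which runs from 250 bases before the start of the gene to 50 bases after it. A member gene was counted if any of its windows matched on either strand, whereas the share over all genes counts single windows. TGTCGCT was found for 10 of 10 alpha genes, 1 of 14 beta genes, 0 of 1 gamma genes and 1 of 9 non-clustered genes, against 1.76% of 35116 windows of all genes. TGGCGCT was found for 0 of 10 alpha genes, 13 of 14 beta genes, 1 of 1 gamma genes and 1 of 9 non-clustered genes, against 4.08% of all windows. The alpha match lay 41 to 84 bases before the start (median 54.5) and the beta match of TGGCGCT 0 to 82 bases before it (median 64). CATTGTT, a run of letters of the kind SOX proteins are known to bind, was found for 1 of 10 alpha, 3 of 14 beta, 0 of 1 gamma and 0 of 9 non-clustered genes, against 3.33% of all windows. None of the 3 runs contains another, and a match is a description of the letters only.

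SOX2 signal fell in both lines, with 63.95% left in NTera-2 (log2 change -0.64 ± 0.12, SE, adjusted p = 0.0155) and 11.38% left in 2102Ep (-3.14 ± 0.12, adjusted p = 2.38e-08). These percentages are of array signal. In the paper, Western blots of siSOX2 cells showed no detectable SOX2 protein for NTera-2 or 2102Ep. All 12 measured markers of embryonal carcinoma had a mean above the median of all probe sets. SOX2 is itself 1 of the 12, so its own fall is part of any fall in their mean. Their mean log2 signal per array was 10.4 to 10.64 in NTera-2 siSOX2 cells, 10.81 to 11.09 in NTera-2 control cells, 10.3 to 10.49 in 2102Ep siSOX2 cells and 11.1 to 11.37 in 2102Ep control cells. ZFP42, one of these markers, was lower in NTera-2 control than in 2102Ep control cells (log2 change -4.14 ± 0.14, adjusted p = 5.32e-09). PODXL, another of them, was higher in NTera-2 control cells (1.06 ± 0.14, adjusted p = 0.000141). On adjusted p, 1 of the 12 was higher and 1 lower between the control cells, and the median change was -0.09. Arrays of a group correlated at 0.9825 to 0.9943, and array medians ran from 7.433 to 7.583. Whether a lower signal reflects fewer cells that express a gene or less RNA per cell cannot be told apart in these bulk samples.

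SOX2 knock-down moved few protocadherins, and none of the 46 was called, that is, changed by at least 2-fold with an adjusted p of 0.05 or less. In 2102Ep, 0 members were called higher and 0 lower, where 0.764% and 0.631% of all probe sets were. On adjusted p alone 2 members rose and 1 fell, which is 4.35% and 2.17% of the members, against 3.15% and 2.83% of all probe sets. In NTera-2, 0 members were called in either direction, against 0.195% higher and 0.282% lower over all probe sets. On adjusted p alone 0 rose and 1 fell (2.17%), against 1.06% and 0.863% of all probe sets. These shares lie near the background of the array. The 95% interval lay within 2-fold for 43 of the 46 members in 2102Ep and for 43 in NTera-2. Over all 32321 probe sets it did so for 29803 in 2102Ep and for 30418 in NTera-2. Such intervals bound changes of signal, and dim signals are compressed.

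**Figure D1:**
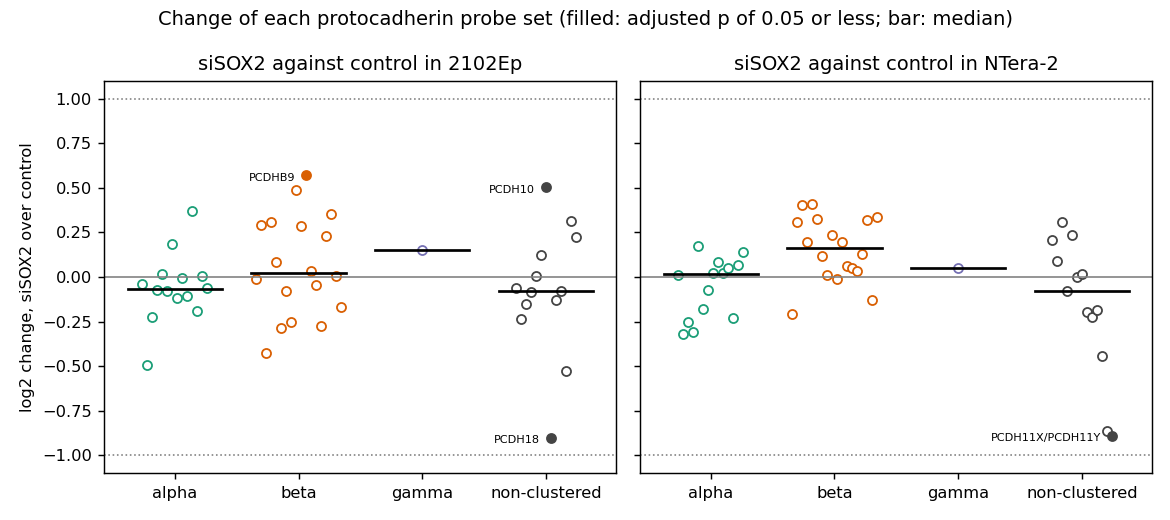
Change of each of the 46 probe sets, as log2 of siSOX2 over control (vertical axis), by class, in 2102Ep (left panel) and NTera-2 (right panel). Each circle is a probe set, filled circles have an adjusted p of 0.05 or less, bars are class medians and dotted lines mark 2-fold. All points lie inside the dotted lines, and the filled ones are PCDHB9, PCDH10 and PCDH18 in 2102Ep and 1 of the 2 PCDH11X/PCDH11Y probe sets in NTera-2.

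PCDH18, a non-clustered protocadherin whose mouse protein binds the adaptor Dab1, showed the largest fall in 2102Ep. Its log2 signal was 8.09, 8.09 and 7.65 in 2102Ep siSOX2 cells, against 9.17, 8.80 and 8.58 in 2102Ep control cells. Every siSOX2 array lay below every control array. The log2 change was -0.90 ± 0.16 (SE, 95% interval -1.26 to -0.55, adjusted p = 0.00491), a 1.87-fold fall. In NTera-2 the gene was dim, at 5.76, 5.60 and 5.64 in siSOX2 cells, against 5.70, 5.99 and 5.91 in control cells. Here the groups overlapped and the change of -0.20 ± 0.16 did not pass the test (adjusted p = 0.788). Set against each other as 2102Ep minus NTera-2, the responses differed by -0.70 ± 0.23 which did not pass either (adjusted p = 0.211).

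PCDH10, known as OL-protocadherin, binds the WAVE actin regulatory complex and guides axon growth in mice. It rose in 2102Ep, where siSOX2 cells had log2 signals of 9.41, 9.32 and 9.30, against 8.98, 8.73 and 8.81 in control cells. The groups did not overlap, and the change was 0.50 ± 0.11 (SE, adjusted p = 0.014), or 1.42-fold. Without 2102Ep siSOX2 replicate 1, or with only the groups compared, its adjusted p was above 0.05, reaching 0.067. NTera-2 siSOX2 cells had 7.00, 6.78 and 7.01, against 7.03, 6.79 and 6.93 in NTera-2 control cells. The arrays of NTera-2 intermixed, with a change of 0.02 ± 0.11 (adjusted p = 0.986) and a 95% interval of -0.22 to 0.25. The difference in response was 0.49 ± 0.15 (adjusted p = 0.181).

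PCDHB9, a gene in the middle of the beta array, was the one clustered member to pass adjusted p in a knock-down. Its log2 signal was 7.34, 7.42 and 7.29 in 2102Ep siSOX2 cells, against 6.76, 6.99 and 6.57 in 2102Ep control cells. The siSOX2 arrays all lay above the control arrays and the change was 0.57 ± 0.14 (SE, adjusted p = 0.0276). Leaving out 1 of the 6 arrays of this line raised its adjusted p above 0.05 in 5 cases, and the highest over all alternatives was 0.105. NTera-2 siSOX2 cells had 6.59, 6.79 and 7.03, against 6.73, 6.63 and 6.46 in NTera-2 control cells, with overlapping arrays (change 0.20 ± 0.14, adjusted p = 0.739).

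PCDH19, an X-linked gene mutated in a childhood epilepsy whose protein works together with N-cadherin, was lower on every siSOX2 array than on every control array of the same line, but passed the test in neither. NTera-2 siSOX2 cells had 6.93, 6.92 and 7.33, against 7.46, 7.50 and 7.56 in NTera-2 control cells (change -0.44 ± 0.15, adjusted p = 0.233). 2102Ep siSOX2 cells had 7.51, 7.63 and 7.26, against 8.21, 7.76 and 8.00 in 2102Ep control cells (change -0.53 ± 0.15, adjusted p = 0.0609). The difference between the lines in this response was -0.08 ± 0.21 (95% interval -0.54 to 0.37, adjusted p = 0.972). Arrays stayed apart in this way for 6 of the 46 members in 2102Ep and for 9 in NTera-2. The share over all probe sets was not counted. With 3 arrays per group, such separation alone has an exact two-sided permutation p of 0.1.

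PCDH11X and PCDH11Y, near-identical genes on the sex chromosomes, share both of their probe sets, so which of them gave the signal is uncertain. In NTera-2 one probe set (8176400) fell (log2 change -0.89 ± 0.12, SE, adjusted p = 0.00143) and the other (8168657) had a change of -0.86 ± 0.23 (adjusted p = 0.1). In 2102Ep the changes were 0.22 ± 0.12 (adjusted p = 0.393) and 0.31 ± 0.23 (adjusted p = 0.602). Probe set 8176400 was the only member called in the difference in response, at 1.12 ± 0.16 (2102Ep minus NTera-2, adjusted p = 0.00353). That is 1 of 46 members, or 2.17%, against 0.606% of all probe sets called higher and 0.427% called lower. On adjusted p alone it was again 1 member higher and 0 lower, against 1.04% and 0.925% of all probe sets. The other probe set differed by 1.18 ± 0.32 but did not pass (adjusted p = 0.113).

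**Figure D2:**
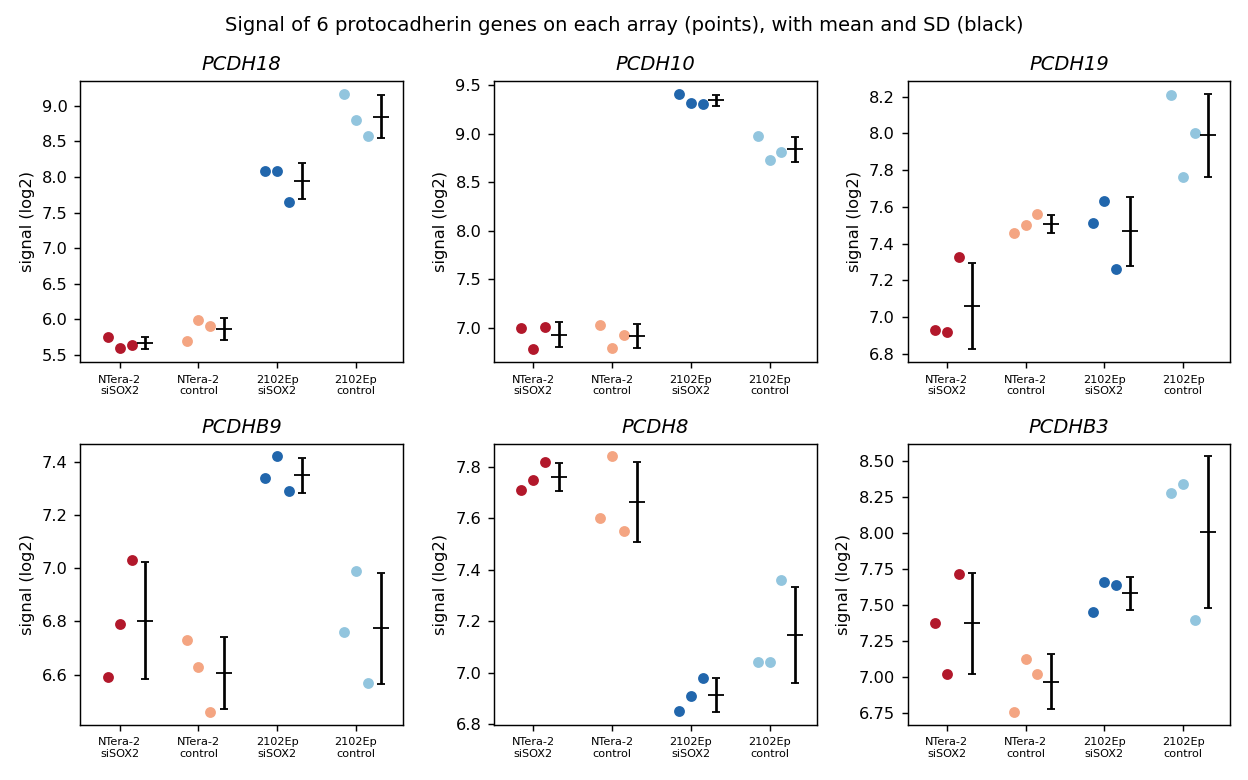
Log2 signal (vertical axis) of 6 protocadherin genes on each of the 12 arrays, by group. Points are arrays, and the black mark and bar are the mean and SD of 3 arrays. In 2102Ep the siSOX2 points lie below the control points for PCDH18, PCDH19 and PCDH8 and above them for PCDH10 and PCDHB9, while for PCDHB3 they overlap.

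Among the remaining non-clustered genes, PCDH8, the paraxial protocadherin of cell movement at gastrulation, had log2 signals of 6.85, 6.91 and 6.98 in 2102Ep siSOX2 cells, against 7.04, 7.04 and 7.36 in 2102Ep control cells. The arrays did not overlap, yet the change of -0.23 ± 0.11 did not pass (adjusted p = 0.358). In NTera-2 the same probe set read 7.71, 7.75 and 7.82 in siSOX2 cells, against 7.60, 7.84 and 7.55 in control cells, which overlap. PCDH17, a protocadherin of synapses in the basal ganglia of mice, read 7.64, 7.70 and 7.78 in NTera-2 siSOX2 cells, against 7.54, 7.31 and 7.35 in NTera-2 control cells. Those arrays also stayed apart, with a change of 0.31 ± 0.10 that did not pass (adjusted p = 0.217). PCDH1, an adhesion protein of airway epithelium, had the highest mean of its class, with 10.17 ± 0.0867 in NTera-2 siSOX2, 10.39 ± 0.0396 in NTera-2 control, 10.22 ± 0.039 in 2102Ep siSOX2 and 10.34 ± 0.15 in 2102Ep control cells (mean log2 signal ± SD, n = 3 each). PCDH15, a component of the tip links of hair cells, had the lowest, with 4.19 ± 0.277 in NTera-2 siSOX2, 3.98 ± 0.0865 in NTera-2 control, 3.985 ± 0.0595 in 2102Ep siSOX2 and 4.05 ± 0.0695 in 2102Ep control cells. Such means rank the signals of probe sets, not the amounts of their transcripts. PCDH7, whose protein binds protein phosphatase 1, PCDH9, a neuronal protocadherin, PCDH12, an endothelial one, and PCDH20 had changes between -0.19 and 0.24 in the knock-downs, none of which passed the test.

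No alpha member passed the test in either knock-down. Changes ran from -0.32 (PCDHA1) to 0.17 (PCDHA3) in NTera-2 and from -0.50 (PCDHA1) to 0.37 (PCDHA10) in 2102Ep, with medians of 0.02 and -0.07 against 0.04 and -0.03 over all probe sets. PCDHA1, the first variable exon of the array, had 5.92, 6.11 and 6.10 in NTera-2 siSOX2 cells, against 6.43, 6.46 and 6.20 in NTera-2 control cells, and 6.63, 7.11 and 6.74 in 2102Ep siSOX2 cells, against 7.53, 7.43 and 7.01 in 2102Ep control cells. Its changes of -0.32 ± 0.16 (adjusted p = 0.542) and -0.50 ± 0.16 (adjusted p = 0.107) did not pass, and the arrays kept apart in NTera-2 but not in 2102Ep. PCDHA common, the probe set annotated with all the alpha genes, had a change of 0.01 ± 0.11 in NTera-2 (95% interval -0.22 to 0.24) and of -0.04 ± 0.11 in 2102Ep (95% interval -0.27 to 0.19).

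Beta members had a median change of 0.16 in NTera-2, where 15 of 18 lay above 0, as did 18968 of all 32321 probe sets, whose median was 0.04. Without NTera-2 siSOX2 replicate 3, whose median deviation over all probe sets was 0.0921, the beta median was 0.06. In 2102Ep the median was 0.02 with 10 of 18 above 0, and the median of all probe sets was -0.03. PCDHB5, the beta probe set of highest mean, read 11.55, 11.63 and 11.55 in NTera-2 siSOX2 cells, against 10.87, 11.55 and 11.08 in NTera-2 control cells, a change of 0.41 ± 0.17 (adjusted p = 0.421). PCDHB3 had changes of opposite sign in the lines, 0.40 ± 0.24 in NTera-2 (adjusted p = 0.652) and -0.43 ± 0.24 in 2102Ep (adjusted p = 0.44), and the difference of -0.83 ± 0.34 did not pass (adjusted p = 0.377). It was decided by 1 array, because 2102Ep control replicate 3 read 7.40 where the other controls read 8.28 and 8.34. Without that array the difference in response was called. PCDHGB4, the only gamma member, had a change of 0.05 ± 0.12 in NTera-2 (adjusted p = 0.947) and of 0.15 ± 0.12 in 2102Ep (adjusted p = 0.634).

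The cell lines themselves differed far more than the knock-downs did. Of the 46 members, 2 were called higher in NTera-2 control than in 2102Ep control cells and 10 lower, which is 4.35% and 21.7% of the members. The 2 called higher were both probe sets of the PCDH11X and PCDH11Y pair, so they are not separate genes. Over all probe sets 3.84% were called higher and 2.63% lower. On adjusted p alone 4 members were higher and 21 lower, or 8.7% and 45.7%, against 14.6% higher and 14.6% lower over all probe sets. The share called lower was thus above the background and the share called higher close to it. The lower members were mostly clustered genes, with 7 of 14 alpha, 10 of 18 beta and 1 of 1 gamma probe sets lower on adjusted p and 0 of them higher. The median change was -0.32 for alpha, -0.63 for beta and -0.07 for non-clustered members, against -0.05 for all probe sets. All alpha and beta members that were called had a mean below the median of the array. Of the 2 beta members above it, PCDHB2 and PCDHB5, neither passed, and their median change was 0.17, while of the 4 alpha members above it PCDHA8 passed and PCDHA12, PCDHA13 and PCDHA common did not. Many clustered probe sets may share probes with near-identical paralogs, so that members of a cluster are not independent measurements.

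**Figure D3:**
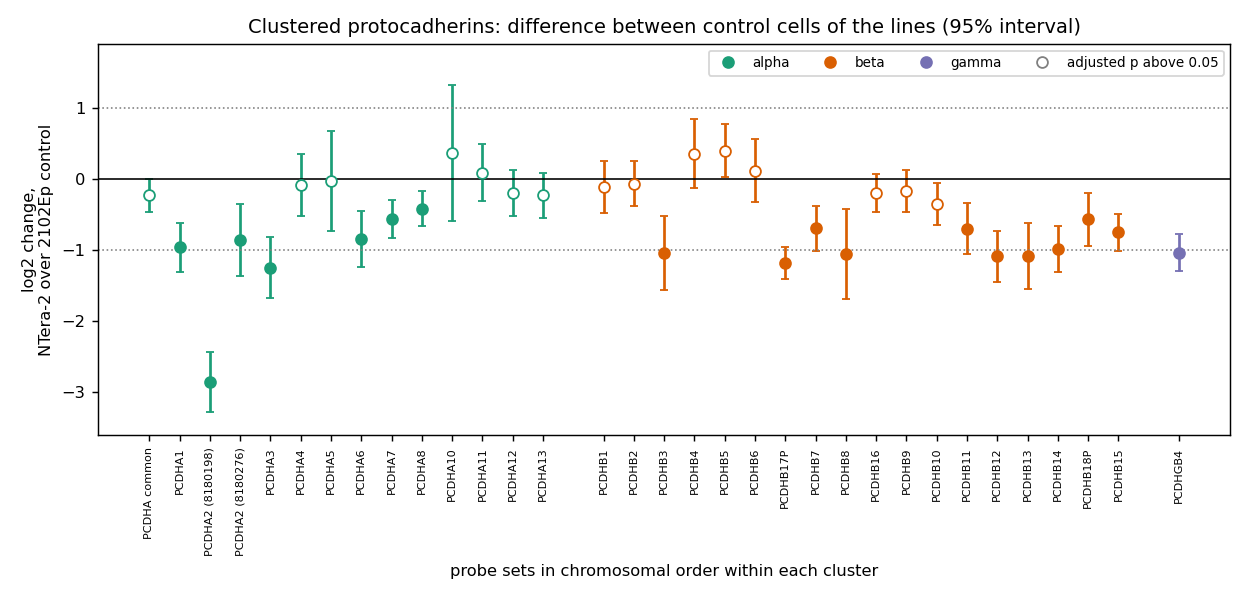
Log2 of NTera-2 control over 2102Ep control (vertical axis, with 95% interval) for the 33 clustered probe sets in chromosomal order. Filled points have an adjusted p of 0.05 or less and dotted lines mark 2-fold. All filled points lie below 0. Among the alpha probe sets they stop at PCDHA8, and among the beta probe sets the last 6 points are all filled.

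In chromosomal order, the alpha probe sets that differed were PCDHA1, PCDHA2 (both of its probe sets), PCDHA3, PCDHA6, PCDHA7 and PCDHA8. PCDHA10 to PCDHA13, the last alpha genes with a probe set of their own, did not pass. Neither did PCDHA4, PCDHA5 and PCDHA common (-0.23 ± 0.11, adjusted p = 0.132). PCDHA9, PCDHAC1 and PCDHAC2 had no probe set of their own. PCDHA2, with low signals in NTera-2 that leave the size uncertain, had log2 signals of 4.53, 3.88 and 4.33 in NTera-2 control cells, against 7.32, 6.85 and 7.15 in 2102Ep control cells (probe set 8180198). The groups lay far apart, at -2.86 ± 0.19 (SE, adjusted p = 8.42e-07). The second probe set of the gene (8180276) agreed in direction but differed in size, at -0.86 ± 0.23 (adjusted p = 0.0155). It was above 0.05 in 3 of 18 alternatives and PCDHA8 in 2 of 20, each time with a single array left out. PCDHA3 had 6.43, 5.83 and 5.78 in NTera-2 control cells, against 7.35, 7.13 and 7.32 in 2102Ep control cells. These arrays did not overlap either, with a change of -1.25 ± 0.20 (adjusted p = 0.000511). PCDHA10 varied most within a group, at 6.28, 5.07 and 5.75 in NTera-2 control cells, against 4.52, 5.12 and 6.34 in 2102Ep control cells, and its 95% interval of -0.59 to 1.33 leaves its direction undetermined.

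In the beta array the probe sets that were lower in NTera-2 control cells were PCDHB3, the pseudogene PCDHB17P, PCDHB7 and PCDHB8, and, at the far end, PCDHB11, PCDHB12, PCDHB13, PCDHB14, the pseudogene PCDHB18P and PCDHB15. PCDHB17P was the most precise of the 5 that were called, with 6.24, 6.32 and 6.10 in NTera-2 control cells, against 7.55, 7.43 and 7.23 in 2102Ep control cells. The lines were separated by more than the spread of either (-1.18 ± 0.10, adjusted p = 6.21e-06). PCDHB12 had 5.84, 5.61 and 5.31 in NTera-2 control cells, against 6.78, 6.72 and 6.52 in 2102Ep control cells (-1.09 ± 0.16, adjusted p = 0.000344). PCDHB13 had 6.21, 5.67 and 6.09 in NTera-2 control cells, against 7.35, 7.01 and 6.85 in 2102Ep control cells (-1.09 ± 0.21, adjusted p = 0.00218). For both genes, and for PCDHB3 (-1.04 ± 0.24, adjusted p = 0.00588) and PCDHB8 (-1.06 ± 0.29, adjusted p = 0.0173), all NTera-2 arrays lay below all 2102Ep arrays. PCDHB8 no longer passed when any of 3 single control arrays was left out. PCDHB18P lost its pass in 4 of 19 alternatives (highest adjusted p 0.105).

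PCDHB1, PCDHB2, PCDHB4, PCDHB5, PCDHB6, PCDHB16, PCDHB9 and PCDHB10 did not pass the test between the lines. PCDHB5 had the highest change of the class, with 10.87, 11.55 and 11.08 in NTera-2 control cells, against 10.76, 11.06 and 10.47 in 2102Ep control cells. These overlap, and the change was 0.40 ± 0.17 (adjusted p = 0.107). PCDHB4, the beta probe set of lowest mean, had a change of 0.36 ± 0.22 (adjusted p = 0.265). PCDHGB4 read 8.73, 8.76 and 8.52 in NTera-2 control cells, against 9.75, 9.51 and 9.85 in 2102Ep control cells. Its NTera-2 arrays were lower throughout, by a change of -1.04 ± 0.12 (adjusted p = 4.92e-05). Leaving out single control arrays brought PCDHGB4 to just under 2-fold in 2 cases, and PCDHB3 in 3, PCDHB8 in 3, PCDHB12 in 1 and PCDHB13 in 2, the smallest change among them being -0.87 for PCDHB3. The promoters printed above were picked from those with a match, so all of them carry the 7 bases of their cluster by selection. Whether the letters bear on the difference between the lines was not tested.

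**Figure D4:**
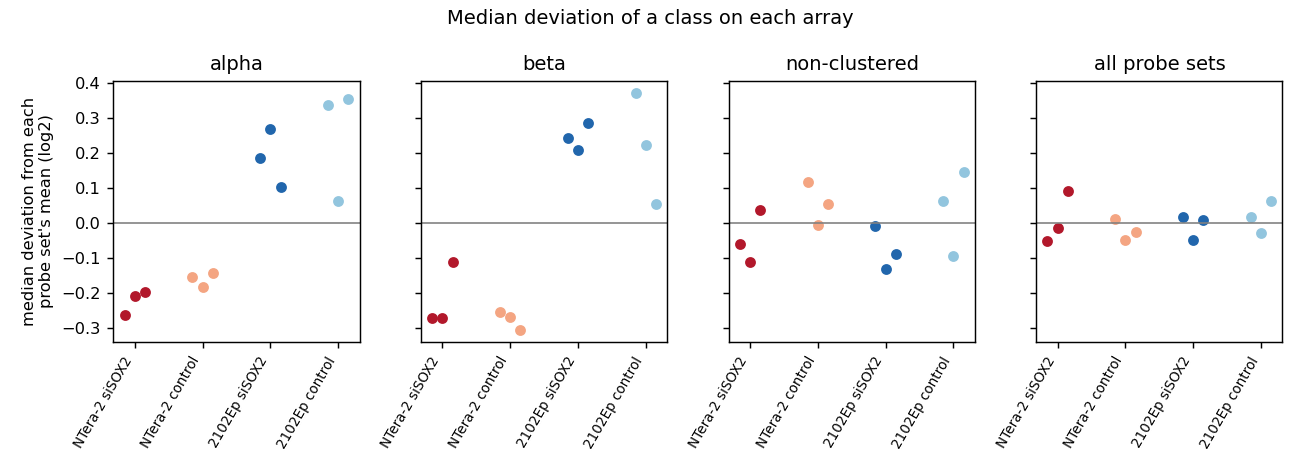
Median over the probe sets of a class of the log2 deviation from each probe set's mean over the 12 arrays (vertical axis), for each array by group. Each point is an array. Alpha and beta medians are below 0 on all 6 NTera-2 arrays and above 0 on all 6 2102Ep arrays, whereas those of non-clustered members and of all probe sets fall on both sides of 0 in each line.

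The class medians per array showed the same division by line on siSOX2 arrays. Those arrays entered the test between control cells only through the shared estimate of the spread. The deviations are taken from means over all 12 arrays, so siSOX2 and control values are not separate measurements here. For alpha members the median deviation was -0.264 to -0.198 in NTera-2 siSOX2 cells, -0.182 to -0.143 in NTera-2 control cells, 0.103 to 0.27 in 2102Ep siSOX2 cells and 0.0619 to 0.354 in 2102Ep control cells. For beta members it was -0.272 to -0.111 in NTera-2 siSOX2 cells, -0.306 to -0.255 in NTera-2 control cells, 0.208 to 0.285 in 2102Ep siSOX2 cells and 0.0538 to 0.372 in 2102Ep control cells. Over all probe sets the medians of single arrays stayed between -0.0526 and 0.0921.

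Non-clustered genes differed in both directions. PCDH18 read 5.70, 5.99 and 5.91 in NTera-2 control cells, against 9.17, 8.80 and 8.58 in 2102Ep control cells. The groups lay apart, at -2.98 ± 0.16 (SE, adjusted p = 1.67e-07), with NTera-2 values low enough on the array that the size is uncertain. PCDH10 read 7.03, 6.79 and 6.93 in NTera-2 control cells, against 8.98, 8.73 and 8.81 in 2102Ep control cells, again with no overlap (-1.92 ± 0.11, adjusted p = 1.97e-07). The PCDH11X/PCDH11Y probe sets were higher in NTera-2 control cells, by 2.16 ± 0.23 (8168657, adjusted p = 2.57e-05) and 1.53 ± 0.12 (8176400, adjusted p = 1.91e-06). PCDH8 (0.52 ± 0.11, adjusted p = 0.00482) and PCDH7 (0.45 ± 0.11, adjusted p = 0.0113) were higher and PCDH19 (-0.49 ± 0.15, adjusted p = 0.0274) lower in NTera-2 control cells, each by less than 2-fold. PCDH19 lost its pass when any of 5 of the 6 control arrays was left out (highest adjusted p 0.101), and PCDH7 without NTera-2 control replicate 3 (0.0555). PCDH1, PCDH9, PCDH12, PCDH15, PCDH17 and PCDH20 did not pass.

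**Figure D5:**
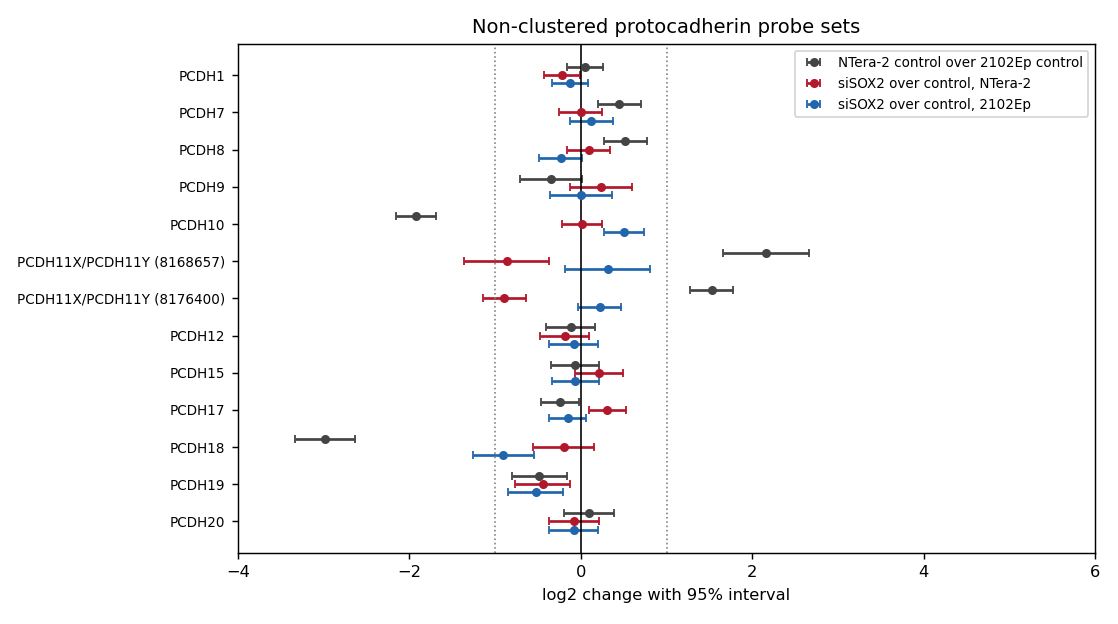
Log2 change (horizontal axis, with 95% interval) of the 13 non-clustered probe sets in 3 comparisons, namely NTera-2 control over 2102Ep control (grey) and siSOX2 over control in NTera-2 (red) and in 2102Ep (blue). Dotted lines mark 2-fold. PCDH18, PCDH10 and the PCDH11X/PCDH11Y probe sets stand beyond 2-fold between the lines, and no point passes 2-fold in a knock-down.

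Genes known to act on the clusters were looked at beside their members. Of 27 regulators, 26 were measured, including CTCF, the cohesin subunits, cohesin loaders and releasers, DNA methyltransferases and repressors of the clusters. No regulator was called in either knock-down, and their median change was 0.06 in NTera-2 and 0.06 in 2102Ep. In NTera-2 none passed adjusted p. In 2102Ep 3 of the 26 fell on adjusted p, against 2.83% of all probe sets, namely TET1, which oxidises methylated cytosine (-0.81 ± 0.13, adjusted p = 0.00234), REST, a repressor of neuronal genes (-0.49 ± 0.12, adjusted p = 0.0266), and DNMT3B, a de novo DNA methyltransferase (-0.56 ± 0.15, adjusted p = 0.0454). Their differences in response between the lines did not pass (adjusted p = 0.0729 for TET1, 0.0643 for REST and 0.65 for DNMT3B). Between the control cells of the lines, 12 of the 26 regulators were higher in NTera-2 and 3 lower on adjusted p, against 14.6% each way over all probe sets, with PDS5B, a cohesin regulator, the only one past 2-fold (1.72 ± 0.12, adjusted p = 1.31e-06). The median of the list was 0.26 in this comparison, against -0.05 over all probe sets. All 26 had a mean above the median of all probe sets, so these shares set bright genes against a table that includes dim ones. SMCHD1, a repressor of the clusters in mice, was higher in NTera-2 control cells (0.60 ± 0.11, adjusted p = 0.00137). So were TET3 (0.78 ± 0.12, adjusted p = 0.000448) and the cohesin subunits STAG1 (0.97 ± 0.12, adjusted p = 9.51e-05), SMC3 (0.55 ± 0.14, adjusted p = 0.0103) and RAD21 (0.27 ± 0.09, adjusted p = 0.045). The 3 lower ones were REST (-0.94 ± 0.12, adjusted p = 8.75e-05), the cohesin subunit STAG2 (-0.90 ± 0.15, adjusted p = 0.000762) and TRIM28 (-0.64 ± 0.11, adjusted p = 0.00113). Their part in the differences of the members was not tested.

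Of 26 listed genes whose proteins bind or cleave protocadherins, 22 were measured. After SOX2 knock-down 1 was called higher and 1 lower in 2102Ep (median change 0.05), where 0.764% and 0.631% of all probe sets were. In NTera-2 0 were called, against 0.195% higher and 0.282% lower over all probe sets. In the difference in response the same 2 were called, CDH2 higher and FZD7 lower, against 0.606% and 0.427% of all probe sets. The other 20 did not pass. CDH2, or N-cadherin, which forms complexes with PCDH19 and PCDH8, had mean log2 signals of 9.05 in NTera-2 siSOX2 cells and 9.81 in NTera-2 control cells (-0.76 ± 0.10, adjusted p = 0.00213), and of 9.66 in 2102Ep siSOX2 cells and 8.45 in 2102Ep control cells (1.21 ± 0.10, adjusted p = 1.95e-05). The difference in its response was 1.97 ± 0.15 (adjusted p = 2.68e-05). FZD7, a Wnt receptor that binds PCDH8 in Xenopus, fell in 2102Ep (-1.05 ± 0.13, adjusted p = 0.000431) and had a change of 0.14 ± 0.13 in NTera-2 (adjusted p = 0.823), a difference of -1.19 ± 0.19 (adjusted p = 0.00617). PSEN2, a gamma-secretase subunit, fell in 2102Ep by less than 2-fold (-0.47 ± 0.10, adjusted p = 0.0112). Among 18 other large cadherins, FAT4, a giant cadherin of planar polarity, was the only one called in a knock-down. It changed by -1.26 ± 0.18 in 2102Ep (adjusted p = 0.00101), where 0.631% of all probe sets were called lower. In NTera-2 its change was 0.24 ± 0.18 (adjusted p = 0.762), a difference of -1.51 ± 0.26 (adjusted p = 0.00928).

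PCDH8 is known as a gene of paraxial mesoderm, so that 17 measured genes of 20 listed for this tissue were set beside it. In 2102Ep 5 of them rose on adjusted p and 2 were called higher, against 3.15% and 0.764% of all probe sets. The median over the list was 0.10. MSGN1, a transcription factor of presomitic mesoderm, rose by 4.28 ± 0.12 (adjusted p = 1.84e-09) and TBXT, or Brachyury, by 2.98 ± 0.13 (adjusted p = 5.44e-08), while the change of PCDH8 in the same cells was -0.23 ± 0.11. In NTera-2 2 of the 17 rose on adjusted p, against 1.06% of all probe sets, with a median of 0.04 over the list. These were DLL3 (0.81 ± 0.13, adjusted p = 0.00686) and DLL1 (0.57 ± 0.10, adjusted p = 0.0105), both ligands of Notch. PCDH8 had a change of 0.09 ± 0.11 in NTera-2 (adjusted p = 0.877).

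Protocadherins are abundant in neurons, so markers of neurons were counted too. Of 13 measured, 6 had a mean above the median of all probe sets. Their mean log2 signal was 8.174 to 8.32 in NTera-2 siSOX2 cells, 8.035 to 8.119 in NTera-2 control cells, 7.299 to 7.404 in 2102Ep siSOX2 cells and 7.262 to 7.485 in 2102Ep control cells, and 8 of them were higher in NTera-2 control than in 2102Ep control cells on adjusted p, 4 of these by at least 2-fold, against 14.6% and 3.84% of all probe sets. Markers of neural progenitors (6 measured) averaged 8.014 to 8.261 in NTera-2 siSOX2 cells, 7.992 to 8.126 in NTera-2 control cells, 7.66 to 7.716 in 2102Ep siSOX2 cells and 7.693 to 7.906 in 2102Ep control cells. Between the control cells 2 of these, OTX2 (2.06 ± 0.11) and FABP7 (0.45 ± 0.15), were higher in NTera-2 and 1, NES (-0.73 ± 0.20), lower on adjusted p, and the median was -0.07. Markers of fibroblasts (8 measured) averaged 6.947 to 7.131 in NTera-2 siSOX2 cells, 6.745 to 6.887 in NTera-2 control cells, 7.076 to 7.172 in 2102Ep siSOX2 cells and 6.823 to 7.066 in 2102Ep control cells. The mean of the neuron markers was thus higher in the line in which the alpha and beta medians were lower, though not every gene of either list differed. The part of these markers in the differences of the members was not tested.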

How the data were processed

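RNA of 12 cultures was hybridised to the Affymetrix Human Gene 1.0 ST array. The authors deposited log2 signals, one for each probe set, made with robust multi-array averaging in the manufacturer's software, of a version not named in the sources used here. No source states the base of the logarithm, and 2 was inferred from values running from 1.57 to 14.98. Such values compress dim signals, and an array gives no count of molecules, so precision is limited by how many arrays there were. The platform annotation names 1 gene for 19158 probe sets, several for 1388 and none for 11775, with no genome build named.

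All 32321 probe sets were fitted with limma 3.58.1 (R 4.3.3, data.table version 1.17.8) with a mean per group and Benjamini-Hochberg adjustment within each of 4 contrasts, and plots were drawn with matplotlib 3.10.9 and pandas 2.3.3 under Python 3.11.15. Called means an adjusted p of 0.05 or less and a change of at least 2-fold (1 on the log2 scale). Each adjusted p comes from limma, since in groups of 3 an exact two-sided permutation test cannot go below 0.1. The procedure was tested on simulated data. That replicates came from separate cultures rests on the label biological. The members and gene lists were chosen with earlier results of these data known. Named members were those called in any contrast, the extremes of each class and contrast, the brightest and dimmest of each class, the non-clustered genes and the leading genes of each list, of which part are printed. No level per array is given for the Y-linked gene. Alternatives were a replicate block, only the groups compared, other normalizations, filters and variance models, adjusted p alone, and each array left out.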

Additional observations from a re-analysis of the deposited data

How the results depend on the processing

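Member counts of 0 in 2102Ep, 0 in NTera-2, 1 in the difference in response and 12 between the lines held under median centring, renewed quantile normalization, a trended robust variance and only the groups compared. Without dim probe sets 12 members were left, and 0 were called in the difference and 2 between the lines, PCDHGB4 and PCDH10. With only annotated probe sets 2 were called in the difference, and with 1 probe set per gene, which drops the probe sets with several symbols, 0 were. On adjusted p alone the counts were 3 in 2102Ep, 1 in NTera-2 and 25 between the lines. Leaving out single arrays gave 0 to 1 in 2102Ep, where the 1 was PCDH18 without 2102Ep control replicate 3, and 1 to 2 in the difference, where PCDHB3 was added without the same array. Between the lines it gave 9 to 14. Same-numbered arrays correlated at -0.13 to 0.0986 in their deviations over 6 pairs, and differently numbered ones at -0.177 to 0.188. So few pairs cannot decide whether the replicate numbers pair the arrays. A fit with the replicate block gave member counts of 0, 0, 1 and 12. Over all alternatives, 545 values of single members that had passed adjusted p still did, 26 no longer did and 0 changed sign. The fall of PCDH18 in 2102Ep passed in 19 of 19 (range -1.04 to -0.74), the rise of PCDH10 in 18 of 20 and that of PCDHB9 in 13 of 19. PCDH19 between the lines no longer passed adjusted p in 5 of 20. The causes of these changes were not tested beyond the smaller tables and sample numbers. Low signal is a further limit, as 34 of 46 members lay below the median of the array.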
